A study of Physcomitrium patens with 4 samples.

Results

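The genes described here were the well-counted ribosomal protein genes of the moss Physcomitrella patens (Physcomitrium patens). A gene was taken when the description of its best Arabidopsis match contained the words ribosomal protein, without kinase or methyltransferase, and when it had at least 200 tags in at least 1 of the 4 libraries. This gave 261 genes of the 18800 in the tag tables, out of 455 genes whose description matched at any tag count. The members were thus chosen by their description and by the measured tag counts of these 4 libraries, and a gene counted well in only 1 library could enter through that library: 49 of the 261 genes reached 200 tags in 1 library only, 69 in 2, 29 in 3 and 114 in all 4. Counts and medians over these genes are descriptions, and the same values over all 455 matching genes are given beside the main ones.

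The study followed moss protoplasts of the Gransden 2004 wild type, that is, cells freed from their walls by the enzyme mix Driselase, made from protonemata, the filamentous young tissue of the plant. RNA was taken from fresh protoplasts, called t-0, and at 3 later times, called t-24, t-48 and t-72 after the hours in culture, with the first 24 h in darkness and day and night cycles afterwards. All 4 groups were the same wild type without any added gene or drug, and all had been through the wall digestion, so no undigested tissue was among them. Each time point was 1 library of pooled RNA in which a single short tag next to an NlaIII site was counted for each transcript. With 1 library a time point, every difference below compares 2 libraries and has no replicate check, and all intervals cover counting error only. The return of light and the longer culture cannot be told apart between t-24 and t-48. Darkness and the first 24 h of culture likewise cannot be told apart between t-0 and t-24. The words in the dark only name that step below.

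Ribosomes are built from ribosomal RNA and many small proteins, most of which are needed in a fixed number per particle. A plant cell has 3 kinds of ribosome: those of the cytosol, those of the plastid and those of the mitochondrion, and nuclear genes encode all of the cytosolic proteins and many of the proteins of both organelles. Cytosolic ribosomal proteins are named RPS in the small subunit, which reads the messenger RNA, and RPL in the large subunit, which joins the amino acids. The acidic P proteins form the stalk of the large subunit that recruits translation factors. In plants each cytosolic protein is usually encoded by several near-identical genes, called paralogs here.

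By the Arabidopsis match, 77 of the 261 genes encoded cytosolic small-subunit proteins, 121 cytosolic large-subunit proteins, 45 plastid proteins and 4 mitochondrial proteins. For 5 genes of the L19 and S16 kinds the organelle could not be settled from the match. The remaining 9 genes share a protein domain with ribosomal proteins but do not encode a structural one, so the label covered them only by its wording. The 261 genes fell into 105 families by the name of the protein.

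Ribosomal protein genes took their greatest share of the gene tags in the t-48 library. Their 261 genes held 8.0% of the gene tags in t-0 protoplasts (95% Wilson interval 7.96% to 8.03%), 9.66% in t-24 cells (9.61% to 9.70%), 14.4% in t-48 cells and 8.36% in t-72 cells (8.33% to 8.40%). The share on cytosolic genes went from 7.15% at t-0 to 9.26% at t-24 and 12.9% at t-48, and stood at 7.97% at t-72. The plastid genes moved otherwise, with 0.637% at t-0, 0.209% at t-24, 1.15% at t-48 and 0.239% at t-72. In the t-72 library 5 genes that each held over 1% of the gene tags held 20.2% of them together, and with the genes of that size in any library left out the ribosomal protein share at t-72 was 10.7%.

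**Figure D1:**
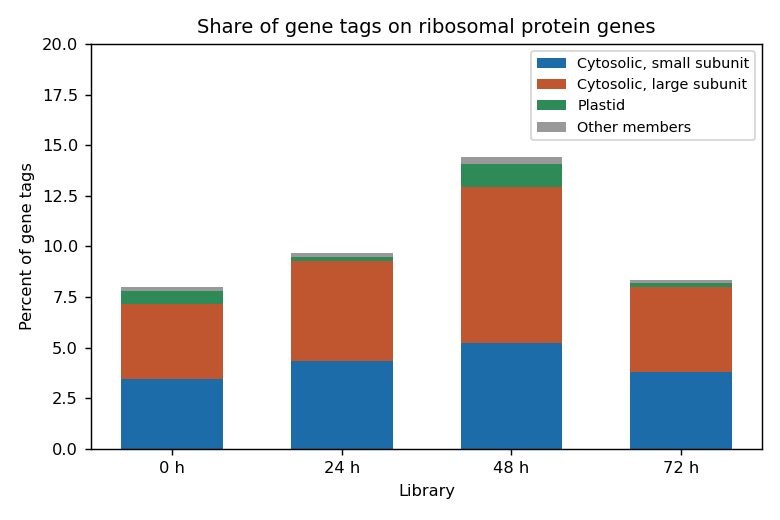
Share of gene tags, in percent, on the 261 ribosomal protein genes in each of the 4 libraries, stacked by class (bars start at 0, 1 library a time point). The total rises from 8.0% at t-0 to 14.4% at t-48 and is 8.36% at t-72, while the plastid part is smallest at t-24, at 0.209%.

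The libraries held 1750184 to 2445814 tags on genes, so a gene with 200 tags was counted with a moderate and a gene with 20 tags with a wide interval. Levels were set to a common scale by TMM, which equates the bulk of the genes between libraries and reduces the weight of the few very abundant ones. A plain scaling by total gene tags in place of TMM shifts every log2 change of a comparison by the same amount. The shift was 0.18 at t-24 against t-0, -0.55 at t-48 against t-24, -0.40 at t-72 against t-48 and -0.77 at t-72 against t-0. The medians below are therefore also given relative to all genes, which no scaling changes. A gene is called higher or lower where the libraries differed at least 4-fold, with at least 100 tags in the higher one, and edgeR's exact test on the counts of the 2 libraries passed 0.01 both before and after Benjamini-Hochberg adjustment. In bulk RNA, fewer cells of a type and less RNA per cell cannot be told apart.

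As a check of the tissue, genes for the light-harvesting antenna, the proteins that carry chlorophyll in green cells, were present in all libraries, with tags in every library for 40 of 47 genes. They took 1.32% of the gene tags at t-0, 0.462% at t-24, 6.15% at t-48 and 1.33% at t-72, the same down, up and down order as the plastid ribosomal protein genes. Genes for the small subunit of RuBisCO, a second marker of green cells, had tags in every library for 3 of 4 genes. Their share was 0.0227% at t-0, 0.0032% at t-24, 0.158% at t-48 and 0.00078% at t-72. The t-72 value rests on 19 tags, and unlike the antenna share it lay far below t-0. What the amount of green-cell RNA contributed to the plastid values below was not tested.

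Between t-0 and t-24, in the dark, most of the calls were falls in the plastid class. Of the 261 genes 6 were called higher and 24 lower, when 2.43% of all genes tested were called higher and 4.88% lower. Among all genes with at least 200 tags in at least 1 library these shares were 5.42% and 12.8%, both above the 2.30% and 9.20% of the ribosomal protein genes. All 6 that rose were cytosolic, while 21 of the 24 that fell were plastid genes and the other 3 were of unsettled organelle. The median change of the 261 genes was 0.13 (log2), 0.20 above that of all genes, against -0.36 for genes with at least 200 tags. Over all 455 matching genes 7 were called higher and 28 lower, with a median of 0.22. With an assumed dispersion of 0.16 in place of counting error alone, 1 gene was called higher and 7 lower.

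Between t-24 and t-48 the calls were mostly rises, and the plastid genes held 34 of them. Here 79 of the 261 genes were called higher and 15 lower, against 7.49% and 6.82% of all genes tested and 19.3% and 16.1% of the genes with at least 200 tags. As shares of the 261 genes these were 30.3%, above both backgrounds, and 5.75%, below both. The median change was 1.30 (log2), 1.59 above that of all genes, against 0.07 for genes with at least 200 tags. On the scaling by total tags 55 were called higher and 22 lower, and with the assumed dispersion 45 and 6. Over all 455 matching genes 91 were higher and 19 lower, with a median of 0.91.

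Between t-48 and t-72 the balance turned. There were 19 genes called higher and 65 lower, against 7.65% and 7.06% of all genes tested and 19.1% and 15.6% of the genes with at least 200 tags. As shares these were 7.28% and 24.9%, the latter above both backgrounds. The genes with at least 200 tags had a median change of 0.19 (log2) and all genes one of 0.01. The median change of the 261 genes was -0.68, 0.70 below that of all genes. With the assumed dispersion 10 were higher and 31 lower. The neighbouring comparisons share a library, so a gene high in the t-48 library alone counts once as higher and once as lower: 28 genes were called higher and then lower after no call in the first step, and 13 were called lower, higher and lower in turn. No call in any of the 3 steps was made for 122 of the 261 genes.

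Across the whole culture, t-72 against t-0, 51 genes were called higher and 25 lower, against 6.09% and 7.90% of all genes tested and 16.6% and 17.8% of the genes with at least 200 tags. As shares these were 19.5% and 9.58%, near the background of the genes with at least 200 tags for the higher genes. The median change was 0.51 (log2), against -0.07 for genes with at least 200 tags, and 0.83 above that of all genes. On the scaling by total tags the median was -0.26 and 31 genes were called higher and 51 lower, and with the assumed dispersion on TMM 21 and 8. The direction of this comparison thus rests on the scaling, and only the position relative to all genes does not.

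**Figure D2:**
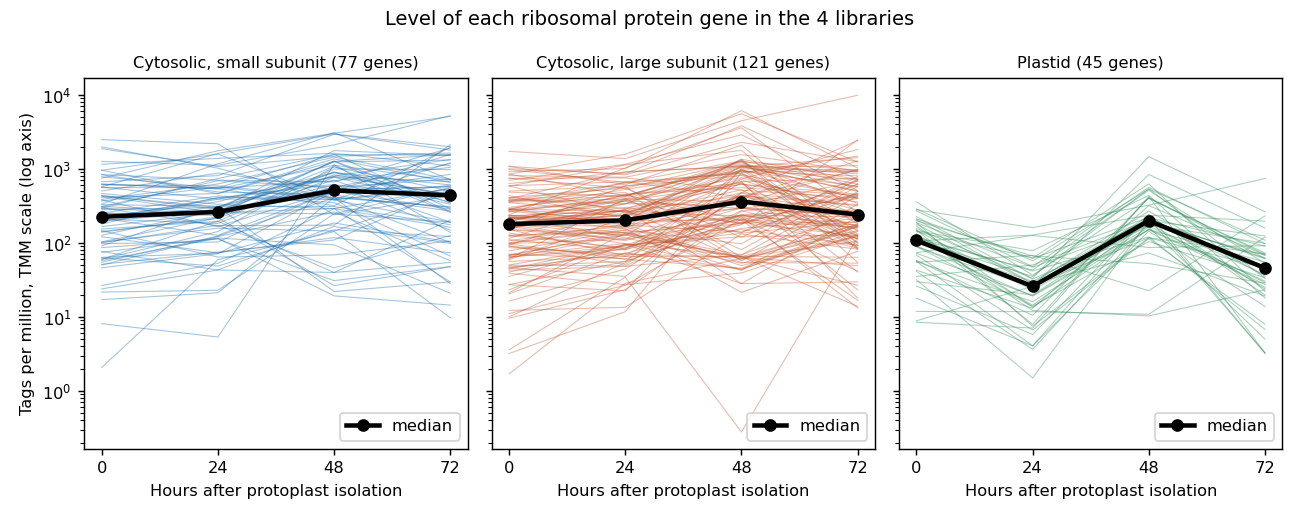
Level of each gene in tags per 1000000 on the TMM scale (log axis, 0.5 tags added) against hours after protoplast isolation, for 77 cytosolic small-subunit, 121 cytosolic large-subunit and 45 plastid genes. Thin lines are single genes and the thick line is the median, which for plastid genes drops at 24 h, peaks at 48 h and drops again at 72 h.

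The plastid ribosomal protein genes mostly shared the direction of change, though not its size. Of their 45 genes 40 had a lower level at t-24 than at t-0, 40 a higher level at t-48 than at t-24 and 40 a lower level at t-72 than at t-48. Their median level went from 108 tags per 1000000 on the TMM scale at t-0 to 25.7 at t-24, 199 at t-48 and 45.4 at t-72. Called in each step were 21 lower and 0 higher, then 34 higher and 0 lower, then 27 lower and 2 higher, with medians of -2.14, 3.24 and -2.44 (log2). The larger count of each step was 46.7%, 75.6% and 60.0% of the class, against 12.8%, 19.3% and 15.6% of genes with at least 200 tags. By t-72 against t-0 the class had 4 higher and 13 lower and a median of -1.39, or 2 higher and 22 lower and a median of -2.15 on the scaling by total tags. On TMM these were 8.89% higher and 28.9% lower, against 16.6% and 17.8% of genes with at least 200 tags. Over all 70 matching plastid genes at any tag count the calls were 25 lower at t-24, 38 higher at t-48 and 28 lower and 2 higher at t-72. The larger counts were 37.9%, 55.9% and 41.2% of those tested, against 4.88%, 7.49% and 7.06% of all genes. Scaling by total tags left the order of the step medians of the 45 genes in place, at -1.96, 2.69 and -2.83.

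Several genes for proteins of the plastid large subunit fell between t-0 and t-24. The gene for L35, Pp1s324_20V6, had 502 tags at t-0, 17 at t-24, 210 at t-48 and 120 at t-72. It fell 26.0-fold in the first 24 h (95% interval 16.1 to 44.9) and rose 16.1-fold by t-48 (9.81 to 28.1), without reaching its t-0 level again. A gene for L12, Pp1s242_95V6, encodes the plastid counterpart of the stalk proteins and had 449, 31, 270 and 46 tags at t-0, t-24, t-48 and t-72. It fell 12.7-fold (8.85 to 19) and rose 11.3-fold (7.80 to 17). The genes for L34 (Pp1s27_326V6: 954, 85, 713 and 123 tags) and L11 (Pp1s141_43V6: 355, 28, 18 and 39 tags) fell 9.87-fold and 11.1-fold in the dark. L34 went down, up and down, but the L11 gene stayed low after t-24, and at t-72 it was still 5.82-fold below t-0 (4.17 to 8.32).

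In the plastid small subunit S17, which in bacteria binds ribosomal RNA early in assembly, followed the same course. Its gene Pp1s11_275V6 had 398, 18, 737 and 104 tags at t-0, t-24, t-48 and t-72, a 19.4-fold fall (12.1 to 33.1), a 53.3-fold rise (33.5 to 90.4) and a 6.70-fold fall (5.45 to 8.31). Both S5 genes fell in the dark, Pp1s61_236V6 with 181, 15, 205 and 13 tags and Pp1s45_164V6 with 475, 65, 131 and 32 tags. Of this pair the first regained its t-0 level at t-48 and the other did not. The S13 gene Pp1s258_19V6 (551, 66, 481 and 60 tags) and the S9 gene Pp1s128_49V6 (391, 53, 321 and 115 tags) fell 7.34-fold and 6.49-fold and then rose 9.49-fold and 7.88-fold. Of the S1 genes, Pp1s40_14V6 had 149, 9, 430 and 33 tags and rose 62.2-fold at t-48 (32.5 to 137), and Pp1s32_313V6 had 499, 109, 316 and 167 tags and fell 4.03-fold in the dark (with 3.27 as the lower end of the interval).

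The plastid-specific ribosomal proteins (PSRP) are so named from their discovery in plastid ribosomes. At t-48 the PSRP4 gene and a PSRP3 gene had the most tags of the class. The PSRP1 gene, described below, had its lowest level there. The PSRP4 gene Pp1s258_80V6 had 417 tags at t-0, 77 at t-24, 2623 at t-48 and 447 at t-72, and rose 44.3-fold between t-24 and t-48 (35.3 to 56.4). Both PSRP3 genes were low at t-0 and t-24 and high at t-48, and they parted at t-72. Pp1s14_169V6 had 23, 60, 1507 and 270 tags, and Pp1s242_42V6 had 22, 16, 761 and 5 tags. Their rises at t-48 were 32.7-fold (25.3 to 43.1) and 61.9-fold (37.9 to 109), and their falls at t-72 were 5.28-fold (4.64 to 6.03) and 144-fold (61.4 to 445). At t-72 the first was therefore 18.4-fold above t-0, whereas the second was at 5 tags. The PSRP6 gene Pp1s74_226V6 had 287, 82, 963 and 56 tags, the common order of the class.

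Several plastid genes had 8 tags or fewer at t-72. Besides the PSRP3 gene these were the genes for L31 (Pp1s378_8V6: 265, 70, 383 and 5 tags), L4 (Pp1s196_122V6: 69, 13, 433 and 5 tags) and L9 (Pp1s45_188V6: 192, 45, 292 and 8 tags), which fell 72.5-fold (30.8 to 224), 81.9-fold (34.8 to 254) and 34.5-fold (17.3 to 80.7). Their levels at t-72 rest on 5 to 8 tags. The second L9 gene, Pp1s536_10V6, had 84, 3, 357 and 62 tags: its rise at t-48 was 155-fold with an interval of 52.6 to 755, since only 3 tags stood at t-24. The L6 gene Pp1s138_83V6 had 387, 183, 785 and 30 tags and the S6 gene Pp1s24_129V6 had 377, 146, 1124 and 37 tags, falls of 24.8-fold and 28.7-fold after t-48.

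The same order of down, up and down was found in 12 further plastid genes. The L1 gene Pp1s196_76V6 had 720, 111, 1012 and 165 tags, and the L10 gene Pp1s200_69V6 had 765, 133, 961 and 184 tags. Both fell over 4-fold in the dark (5.70-fold and 5.06-fold), rose at t-48 (11.9-fold and 9.41-fold) and fell at t-72 (5.80-fold and 4.94-fold). The genes for L15 (Pp1s16_247V6: 113, 30, 572 and 116 tags, and Pp1s212_78V6: 109, 8, 327 and 42 tags), L27 (Pp1s19_202V6: 154, 24, 729 and 118 tags) and L10 (Pp1s76_199V6: 47, 9, 258 and 23 tags) had rises at t-48 of 24.8-fold to 53.2-fold. Rises of 4.41-fold to 14-fold were found for L17 (Pp1s91_15V6), L3 (Pp1s117_86V6), L4 (Pp1s134_66V6), L12 (Pp1s60_169V6), S21 (Pp1s32_202V6) and S6 (Pp1s359_29V6). For S10, which is also a protein of transcription complexes in bacteria, Pp1s122_133V6 (79, 46, 357 and 210 tags) kept most of its t-48 level at t-72, while Pp1s9_408V6 (149, 37, 274 and 51 tags) did not.

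A few plastid genes ran against their class. PSRP1, the plastid member of a family of ribosome hibernation factors that silence idle ribosomes, had 145 tags at t-0, 158 at t-24, 40 at t-48 and 392 at t-72 in Pp1s191_87V6. Its lowest library was the one in which most of the class was highest, and it rose 10.4-fold between t-48 and t-72 (7.47 to 14.7). The S20 gene Pp1s94_105V6 had 31, 27, 19 and 203 tags and rose 11.3-fold in the same step (7.05 to 19.1), while its paralog Pp1s323_3V6 had 321, 97, 216 and 11 tags and fell 18.6-fold (10.2 to 37.8). The L1 gene Pp1s137_165V6 had 529, 155, 94 and 48 tags, each lower than the one before. The L13 gene Pp1s134_168V6 had 93, 117, 365 and 103 tags, with no fall in the dark, against 602, 75, 302 and 49 tags for its paralog Pp1s152_173V6.

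Of the 4 mitochondrial genes 1, for L15, had the plastid order of down, up and down, and the other 3 did not. None was called between t-0 and t-24. The L9 gene Pp1s29_55V6 had 87, 117, 45 and 563 tags and rose 13.2-fold at t-72 (9.75 to 18.3), which was the reverse of the plastid L9 genes. The L1 gene Pp1s94_163V6 had 201, 246, 279 and 35 tags and the L4 gene Pp1s158_147V6 had 127, 267, 225 and 38 tags, and both fell at t-72, by 7.54-fold and 5.6-fold. The L15 gene Pp1s88_135V6 (96, 69, 256 and 74 tags) rose 4.83-fold at t-48. Most mitochondrial genes, of 32 matching at any tag count, lay below the tag minimum. At t-48 against t-24, 3 of 28 tested were called higher (10.7%, against 7.49% of all genes) and 0 lower (against 6.82%). At t-72 against t-48, 2 of 26 tested were called higher and 2 lower. Each was 7.69%, near the 7.65% and 7.06% of all genes tested. The 5 genes of unsettled organelle had the plastid order in part, since 3 fell in the dark (the S16 genes Pp1s11_225V6 with 647, 77, 184 and 300 tags and Pp1s38_249V6 with 156, 10, 450 and 65 tags, and the L19 gene Pp1s10_389V6 with 317, 51, 136 and 48 tags). A further S16 gene, Pp1s1_176V6, had 29, 36, 207 and 140 tags and no such fall.

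**Figure D3:**
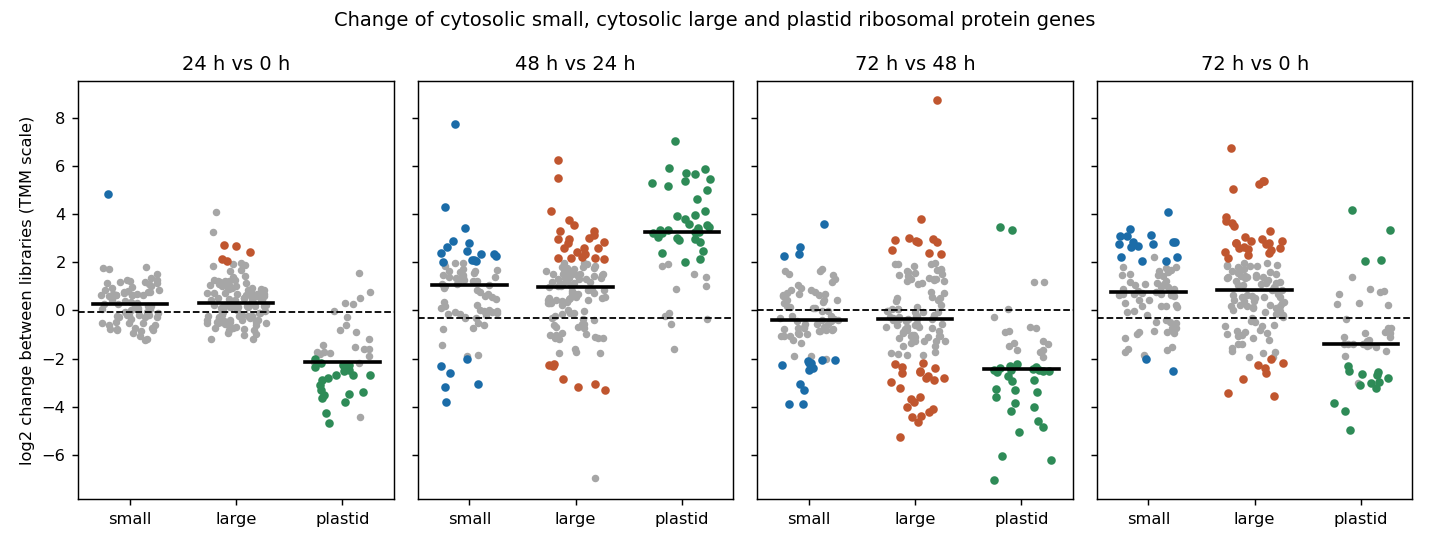
log2 change of each cytosolic small-subunit, cytosolic large-subunit and plastid gene in each comparison of 2 libraries (TMM scale). Coloured points are called, grey points are not, black bars are class medians and the dashed line is the median of all genes: the plastid medians are -2.14, 3.24, -2.44 and -1.39, and the cytosolic ones lie between -0.41 and 1.06.

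The cytosolic genes moved less in the dark and less evenly afterwards. Between t-0 and t-24 the median change was 0.28 (log2) in the small and 0.29 in the large subunit, with 1 and 5 genes called higher and 0 lower in both. Between t-24 and t-48 the medians were 1.06 and 0.97, with 15 higher and 6 lower in the small subunit and 23 higher and 7 lower in the large one. Together the cytosolic genes called higher in this step were 19.2% of the 198, close to the 19.3% of all genes with at least 200 tags. On the scaling by total tags these splits were 6 and 8, and 16 and 11. Between t-48 and t-72 the medians were -0.41 and -0.36, with 4 higher and 12 lower, and 11 higher and 23 lower. The cytosolic genes called lower were 17.7%, near the 15.6% of all genes with at least 200 tags. For t-72 against t-0 the medians were 0.75 and 0.84 on the TMM scale but -0.01 and 0.07 on the scaling by total tags, with 16 higher and 2 lower and 27 higher and 8 lower on TMM, against 9 and 8 and 17 and 17 on total tags. The subunits thus gave like medians in each step, and a difference between them was not tested.

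The 6 cytosolic genes that rose in the dark were few and mostly low at the start. An RPS16 gene, Pp1s17_377V6, had 5 tags at t-0, 138 at t-24, 255 at t-48 and 16 at t-72. It rose 31.4-fold (13.1 to 98.2) and then fell 15.1-fold at t-72 (9.11 to 26.8). The RPL7 gene Pp1s7_369V6 had 161, 921, 1937 and 854 tags, the RPL23 gene Pp1s73_232V6 had 56, 317, 109 and 249 tags and the RPL15 gene Pp1s28_15V6 had 26, 126, 487 and 192 tags, with rises of 6.51-fold, 6.44-fold and 5.51-fold. The RPL14 gene Pp1s83_247V6 was the only one of them with a high level, with 633, 2417, 6454 and 436 tags, and the RPL9 gene Pp1s183_107V6 had 61, 224, 50 and 383 tags. The later libraries showed no common course in these 6 genes.

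The small subunit held the gene with the widest change at t-48. RPS3a sits on the outer side of the small subunit near the exit of the messenger RNA. Its gene Pp1s80_113V6 had 21 tags at t-0, 12 at t-24, 2057 at t-48 and 235 at t-72, a 223-fold rise (127 to 433) followed by an 8.28-fold fall (7.23 to 9.52). An RPS12 gene, Pp1s26_289V6, had 45, 49, 739 and 47 tags, a 19.6-fold rise (14.7 to 26.8) and a 14.9-fold fall (11.1 to 20.4). Both were highest at t-48. The RPS12 gene was low in the other libraries, whereas the RPS3a gene at t-72, with 235 tags, was still above its t-0 level of 21 tags.

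Other small-subunit genes were lowest at t-48. RPS30, a small basic protein made in animals as a fusion with a ubiquitin-like protein, was the most heavily tagged small-subunit gene at t-0, where Pp1s283_53V6 had 6598 tags, with 5114 at t-24, 430 at t-48 and 733 at t-72. It fell 9.14-fold (8.28 to 10.1) and at t-72 it was still 5.75-fold below t-0 (5.33 to 6.22). The RPS2 gene Pp1s274_5V6 had 242, 715, 39 and 50 tags and the RPS9 gene Pp1s14_31V6 had 274, 510, 47 and 80 tags, with falls of 14.1-fold and 8.34-fold. RPS2 and RPS9 both lie where the messenger RNA enters the ribosome.

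A further group was highest at t-72. The RPS19 gene Pp1s54_217V6 had 793 tags at t-0, 399 at t-24, 311 at t-48 and 3597 at t-72, a 12.2-fold rise in the last step (10.9 to 13.8). Among the most heavily tagged genes, RPS25 (Pp1s36_84V6: 3357, 2619, 3787 and 8923 tags) and RPS14 (Pp1s316_6V6: 1990, 4110, 5432 and 8683 tags) were 4.16-fold and 6.83-fold higher at t-72 than at t-0. The RPS29 gene Pp1s79_7V6 (1524, 3789, 5312 and 3388 tags) was not called in any comparison.

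In the large subunit the highest t-48 rises were of RPL13a and RPL27a genes. The RPL13a gene Pp1s63_162V6 had 8, 27, 1584 and 225 tags and rose 76.4-fold between t-24 and t-48 (52.3 to 116). The RPL27a gene Pp1s154_116V6 had 72, 52, 1807 and 247 tags and rose 45.2-fold (34.3 to 60.8). A second RPL27a gene, Pp1s400_20V6, was among the most heavily tagged of all, with 2444, 2357, 11003 and 1750 tags, and rose 6.08-fold (5.81 to 6.36) before falling 5.95-fold (5.65 to 6.26). The RPL24 gene Pp1s63_123V6 (72, 130, 1736 and 682 tags) rose 17.4-fold. RPL5, which carries the 5S ribosomal RNA into the ribosome, had 2669, 2004, 6870 and 1226 tags in Pp1s97_115V6, a 4.46-fold rise and a 5.30-fold fall.

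Large-subunit genes that fell at t-48 included RPL10a and RPL18 genes. Pp1s40_297V6, for RPL10a, had 483, 650, 50 and 50 tags and fell 9.99-fold (7.48 to 13.6). For RPL18, Pp1s536_8V6 had 956, 1348, 114 and 178 tags and Pp1s45_11V6 had 597, 364, 38 and 130 tags, with falls of 9.08-fold (7.50 to 11.1) and 7.36-fold (5.26 to 10.6). These genes stayed below their t-0 level at t-72.

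Among the cytosolic genes the steepest falls at t-72 were also in the large subunit. The RPL31 gene Pp1s58_106V6 had 248, 670, 1218 and 30 tags and fell 38.4-fold (26.8 to 57.2). RPL4, whose long loop lines the tunnel through which new chains leave, had 476, 455, 2429 and 92 tags in Pp1s10_102V6, a 25-fold fall (20.3 to 31.1). RPL37 (Pp1s3_512V6: 1557, 2637, 3199 and 139 tags) and RPL39 (Pp1s89_150V6: 2871, 1425, 3762 and 170 tags), the latter also a protein of the exit tunnel, fell 21.8-fold (18.4 to 26.0) and 20.9-fold (17.9 to 24.6). The RPL14 gene Pp1s83_247V6 fell 14-fold (12.7 to 15.5). These 5 genes had 1218 tags or more at t-48 and 30 to 436 at t-72.

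The stalk proteins were divided at t-72. RPP0 anchors the stalk to the ribosome, and its gene Pp1s38_196V6 was the most heavily tagged of all the ribosomal protein genes, with 4580 tags at t-0, 3214 at t-24, 8029 at t-48 and 16789 at t-72. The other RPP0 gene, Pp1s39_424V6, had 173, 190, 315 and 4192 tags. They were 5.74-fold (5.55 to 5.93) and 37.9-fold (32.6 to 44.4) above t-0 at t-72. The RPP1 and RPP2 proteins bind to RPP0 in pairs. The main RPP1 gene, Pp1s152_152V6, had 2255, 3683, 9981 and 2103 tags and fell 4.49-fold at t-72 (4.28 to 4.71), when RPP0 had its highest value. RPP3 is a stalk protein found only in plants, and its gene Pp1s266_20V6 had 998, 1121, 102 and 733 tags, an 8.44-fold fall at t-48 (6.89 to 10.4) and a 7.60-fold rise (6.17 to 9.44). Over the 11 stalk genes 1 was called higher and 1 lower at t-48, and 2 higher and 4 lower at t-72. At t-48 each was 9.09%, below the 19.3% and 16.1% of genes with at least 200 tags. At t-72 they were 18.2% and 36.4%, against 19.1% and 15.6% of such genes.

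The paralogs of a family often peaked in different libraries. Of 57 cytosolic families with at least 2 of the genes, 50 had members whose highest library differed, and in 35 the most heavily tagged paralog was not the same in all 4 libraries. For plastid families these counts were 8 and 12 of 16. Tags shared by several genes had been removed, so near-identical paralogs were counted only where their tags differed, and the share of a paralog in its family holds for these tags only. Highest libraries that differ by less than the counting error are included in these counts. Of the cytosolic genes, 17 were highest at t-0, 21 at t-24, 102 at t-48 and 58 at t-72, so unrelated genes also often differ in their highest library. The share expected for families of unrelated genes was not computed. These counts therefore do not show whether paralogs differ more or less often than other genes.

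Summed over their paralogs, cytosolic families changed less than single genes. The SD of the log2 change was 1.79 over the 192 genes and 0.82 over the 57 family sums at t-48 against t-24, 1.88 and 1.06 at t-72 against t-48, and 0.92 and 0.58 at t-24 against t-0. A sum over several genes varies less than its terms in any case. At t-48 against t-24 4 family sums were at least 4-fold higher and 0 at least 4-fold lower, and 49 of 57 were above 0. In the same step 13 of the 16 plastid family sums were at least 4-fold higher, and all 16 were above 0. In 3 cytosolic families one paralog was called higher and another lower at t-48 against t-24, and in 7 at t-72 against t-48.

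**Figure D4:**
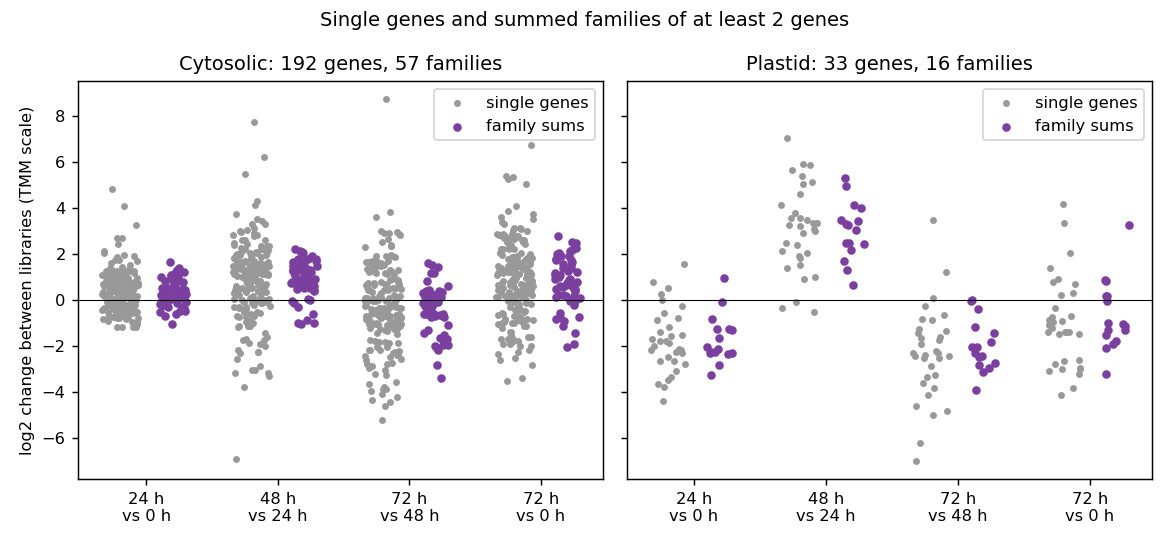
log2 change (TMM scale) of single genes (grey) and of the summed tags of their families (purple), for 57 cytosolic and 16 plastid families with at least 2 genes, in the 4 comparisons. Cytosolic family sums spread less than their genes, with SDs of 0.82 and 1.79 at 48 h vs 24 h, and plastid sums keep the down, up and down order.

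The 8 families with the widest gap between paralogs at t-72 against t-0 were plastid S20, RPL10, RPL37a, RPL6, plastid PSRP3, RPL18, RPL13a and RPL37. Some of their genes passed the tag minimum only through the t-72 library, which can widen such gaps. Among them were Pp1s94_105V6, Pp1s14_193V6 and Pp1s126_112V6. RPL37a showed a gap most plainly. Its genes Pp1s1_348V6, Pp1s2_289V6 and Pp1s14_193V6 had 632, 390, 88 and 206 tags, 206, 348, 767 and 352 tags, and 9, 80, 0 and 201 tags at t-0, t-24, t-48 and t-72. Their sums were 847, 818, 855 and 759 tags, which on the TMM scale were 319, 350, 476 and 447 tags per 1000000. The first gene gave 74.6% of the family's tags at t-0 and 10.3% at t-48, and the second 24.3% and 89.7%. For Pp1s14_193V6 the t-48 library held no tag, which with a floor of 3 tags in that library makes its t-72 level at least 70.8-fold higher than its t-48 level.

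Among the others, 3 of 4 RPL6 genes were called higher at t-72 against t-0, and 1 gene each in RPL10 and RPL18. The 4 RPL6 genes were Pp1s126_112V6 (4, 66, 110 and 304 tags), Pp1s126_115V6 (107, 199, 431 and 472 tags), Pp1s30_44V6 (400, 1374, 1681 and 1553 tags) and Pp1s59_122V6 (559, 701, 330 and 779 tags). The first 3 were 119-fold (46.0 to 439), 6.90-fold (5.59 to 8.60) and 6.08-fold (5.44 to 6.80) above t-0 at t-72, and the fourth 2.18-fold. RPL10 completes the large subunit late in assembly. Its gene Pp1s447_11V6 had 25, 54, 483 and 671 tags and was 42.0-fold above t-0 at t-72 (28.2 to 65.4), beside 1553, 594, 1319 and 3099 tags for Pp1s347_24V6 and 593, 274, 95 and 211 tags for Pp1s2_197V6. In RPL18 the gene Pp1s304_9V6 took over: it had 485, 451, 858 and 4119 tags, 13.3-fold above t-0 at t-72 (12.1 to 14.6), while Pp1s2_233V6 (93, 216, 271 and 157 tags) and Pp1s45_191V6 (466, 250, 533 and 260 tags) had no call.

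RPL13a and RPL37 differed by which paralog left the group. Beside the t-48 peak of Pp1s63_162V6, which gave 0.179% of the RPL13a tags at t-0 and 24.6% at t-48, Pp1s165_40V6 had 2886, 1940, 4107 and 2129 tags and Pp1s174_48V6 had 1571, 1566, 747 and 1630 tags. In RPL37 a pair of genes fell at t-72, Pp1s3_512V6 and Pp1s475_18V6 (515, 1035, 363 and 28 tags, a 12.3-fold fall with an interval of 8.34 to 18.7). The other pair, Pp1s222_87V6 (759, 623, 775 and 556 tags) and Pp1s24_197V6 (149, 152, 423 and 270 tags), had no call.

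**Figure D5:**
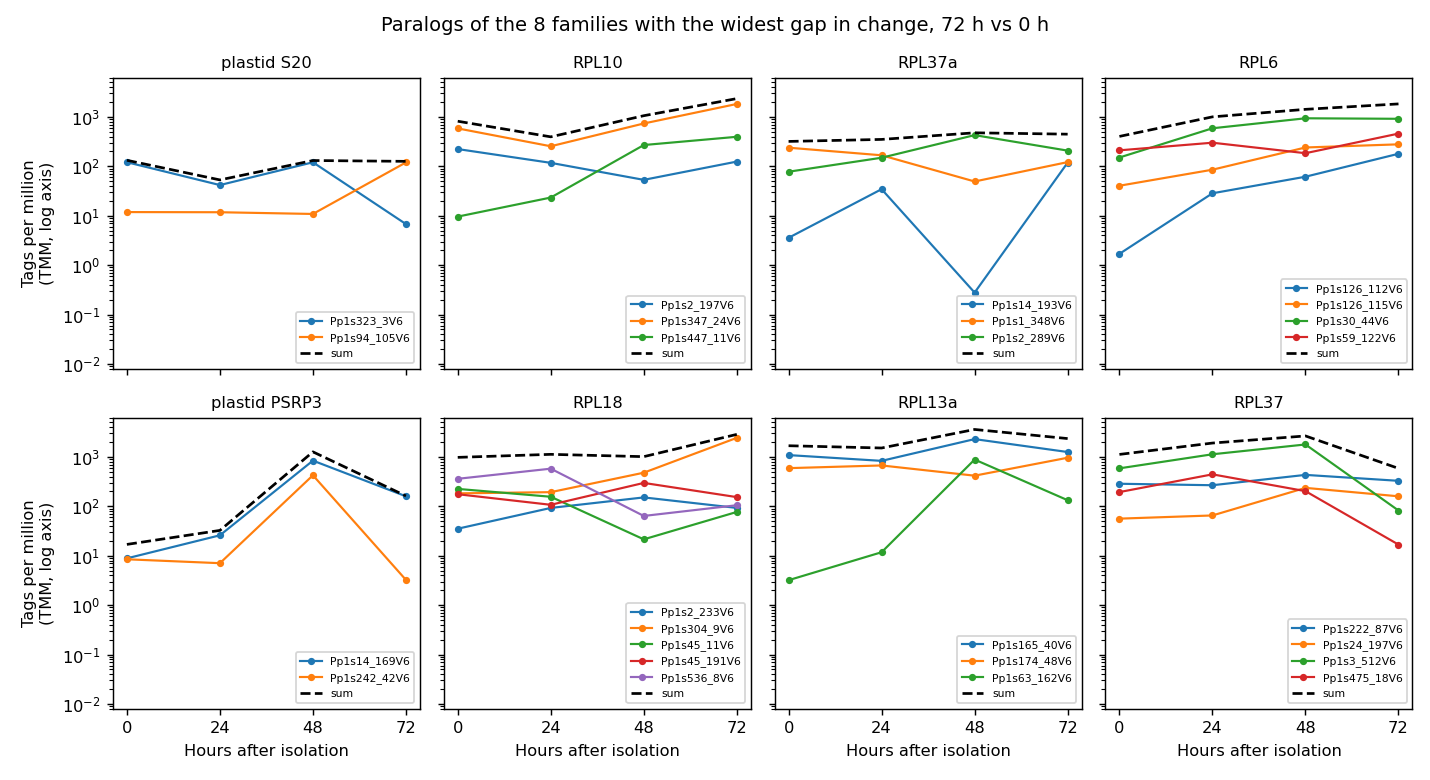
Level of each paralog in tags per 1000000 on the TMM scale (log axis, 0.5 tags added) against hours after isolation, for the 8 families with the widest gap between paralogs at 72 h vs 0 h. The dashed line is the family sum, which in RPL37a goes from 319 at t-0 to 350 at t-24, 476 at t-48 and 447 at t-72 while its 3 genes cross.

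Further families were singled out after their values had been seen. In RPS12 the gene Pp1s194_130V6 had 2546, 3708, 695 and 880 tags, so that it gave 98.3% of the family's tags at t-0 and 48.5% at t-48, where Pp1s26_289V6 gave the rest. In RPS3a, Pp1s80_113V6 gave 0.547% of the tags at t-0 and 20.8% at t-48, beside Pp1s219_50V6 with 1650, 1259, 571 and 3332 tags, which was lowest at t-48. The RPL31 gene Pp1s79_255V6 (588, 482, 741 and 2181 tags) gave 78.4% of the family at t-72, when Pp1s58_106V6 gave 1.08%. RPS23, which lies at the decoding centre, was a counter-example: its 4 genes summed to 6054, 5741, 6687 and 6343 tags and none of them was called in any comparison. None of the 6 RPL19 genes was called either.

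Gene identifiers number the genes along each scaffold of the assembly, and 24 pairs of the genes had numbers within 5 of each other. Of these pairs 4 joined paralogs, and 6 kinds of pair occurred on 2 scaffolds each. RPP0 stood beside RPS4 on 2 scaffolds, RPS15 beside RPS9, RPL15 beside RPL7, RPL13a beside RPS27 and RPL18 beside plastid L9, and RPL7a genes stood beside each other. Of the 24 pairs 7 had their highest level in the same library. Over all the ribosomal protein genes the highest library was t-0 for 30, t-24 for 23, t-48 for 144 and t-72 for 64. The number of matches among genes that are not neighbours was not computed. The 7 matches therefore do not show whether neighbours share a course more or less often than other genes, and the pairs below are single cases. Next to the RPP0 gene Pp1s39_424V6, which rose 14.1-fold at t-72 (12.5 to 15.8), the RPS4 gene Pp1s39_422V6 fell 4.78-fold (523, 613, 2280 and 451 tags). Next to the plastid L9 gene Pp1s536_10V6, which rose 155-fold at t-48, the RPL18 gene Pp1s536_8V6 fell 9.08-fold.

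Of the 9 genes that encode no structural ribosomal protein, 7 are described apart. The eEF2 gene Pp1s138_81V6, for the factor that moves the ribosome along the messenger RNA, had 54, 109, 379 and 469 tags and was 13.6-fold higher at t-72 than at t-0 (10.2 to 18.4). The eEF1B gene Pp1s145_172V6, for the exchange factor of the elongation cycle, had 969, 527, 1466 and 751 tags and no call. SNU13, a protein of small nucleolar and spliceosomal particles, had 84, 233, 1022 and 282 tags in Pp1s65_24V6, and NHP2, of the particles that modify ribosomal RNA, had 115, 85, 400 and 145 tags in Pp1s131_177V6: both rose at t-48, 5.71-fold and 6.13-fold. The assembly factor genes MRT4 (Pp1s138_84V6: 333, 216, 29 and 73 tags) and NSA2 (Pp1s136_220V6: 388, 627, 421 and 151 tags) did not, and MRT4 fell 5.72-fold at t-48 (3.87 to 8.75). The gene Pp1s197_54V6, with an S24e domain, had 199, 208, 27 and 171 tags.

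Other parts of the translation and protein turnover machinery showed smaller medians at t-48. Of 35 ribosome biogenesis genes tested, which encode nucleolar factors that make and process ribosomal RNA, 1 was called higher and 4 lower at t-48 against t-24, with a median of -0.34 (log2). In that step 7.49% of all genes tested were called higher and 6.82% lower. Among 150 translation factor and tRNA synthetase genes 20 were higher (13.3%) and 12 lower (8.0%), with a median of 0.23, and among 53 proteasome genes 3 were higher (5.66%) and 2 lower (3.77%), with a median of -0.21. The ribosomal protein genes had 1.30 in that step and all genes -0.29. Without a tag minimum, as in these lists, the 455 matching genes had 0.91. The cytosolic ones among them had 0.71 in the large and 0.56 in the small subunit. At t-72 against t-48 the biogenesis genes had 4 higher (11.1%, against 7.65% of all genes) and 0 lower of 36 and a median of 0.71, against -0.68 for the ribosomal protein genes. The matching cytosolic genes without a tag minimum had -0.45 in the large and -0.56 in the small subunit in this step. The biogenesis, translation and proteasome lists had no tag minimum, and a difference between the lists was not tested.

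At the tag minimum itself the choice fell between close values. Just inside was the RPL37a gene Pp1s14_193V6, with 201 tags in its highest library. Next, both with 203 tags, were the RPS24 gene Pp1s37_112V6 (203, 100, 71 and 92) and the plastid S20 gene Pp1s94_105V6 (31, 27, 19 and 203). Just outside were the RPS25 gene Pp1s59_8V6, with 195 tags (174, 179, 195 and 41), and the plastid L9 gene Pp1s536_9V6, with 193 tags (149, 12, 193 and 116). The genes outside the minimum numbered 194, with a median of 62 tags in their highest library.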

How the data were processed

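One library a time point was measured. Per the labels and the study's methods, the authors trimmed adaptors, removed single-copy tags, mapped tags with Bowtie allowing 1 mismatch to annotated transcripts, dropped tags of several genes and summed the rest into a deposited tag count per gene. The deposited second column is a score, tags per 100000 clean tags, and was not used for tests. Shared tags make near-identical paralogs uncertain. Libraries held 1750184 to 2445814 gene tags.

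Counts were scaled by TMM (edgeR 4.0.16, R 4.3.3) and tested with edgeR's exact test at a dispersion of 1e-09, since no replicate gives a spread, on genes with at least 10 tags in both libraries together. Ratios have 95% exact conditional intervals, and log2 values used 0.5 added tags. DESeq2 1.42.0 gave alternative size factors. The test was also run on simulated counts that held counting error only, so that run does not measure error between cultures. Tables and figures used Python 3.11.15, pandas 2.3.3, scipy 1.17.1 and matplotlib 3.10.9.

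Members and lists were chosen with earlier results of these data known. Named were the 8 most tagged genes, per comparison the 6 largest rises and falls among called genes ranked by the interval end nearest 1, up to 3 called genes per class and step, all paralogs of the 8 families with the widest gap, genes at the tag minimum, genes of no structural protein and every called plastid or mitochondrial gene. Families and organelles came from the Arabidopsis match. Genes added after seeing values are said so or serve as paralogs of a named gene. A few genes are not reported here.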

Additional observations from a re-analysis of the deposited data

How the results depend on the processing

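No paired analysis was possible because each time point had 1 library, and for the same reason no replicate could be left out and no sample could be tested as standing apart. With the dispersion set to 0.16, a spread assumed and not measured, fewer members were called: 1 higher and 7 lower at 24 h vs 0 h, 45 and 6 at 48 h vs 24 h, 10 and 31 at 72 h vs 48 h, and 21 and 8 at 72 h vs 0 h. With 1 summed value per Arabidopsis locus, and so fewer values tested, 0 were higher at 24 h vs 0 h by edgeR's exact test, where the main count was 6, 39 were higher and 3 lower at 48 h vs 24 h, 5 higher and 30 lower at 72 h vs 48 h, and 16 higher and 10 lower at 72 h vs 0 h. Scaling by total gene tags moved the median log2 change of members to 0.75 at 48 h vs 24 h and to -1.08 at 72 h vs 48 h, and it reversed the median at 72 h vs 0 h to -0.26, with 31 members called higher and 51 lower. Without a tag minimum for members the median at 48 h vs 24 h was 0.91, and the shares of gene tags were 8.34%, 10.1%, 14.8% and 8.61% at 0, 24, 48 and 72 h. Without the genes over 1% of any library the shares were 8.20%, 10.3%, 15% and 10.7%, since 5 very abundant genes fill part of the 72 h library. DESeq2 size factors, no filter on low counts, a mean of at least 50 tags and structural proteins only kept every count of calls over all members within 1.5 times and, where a median was computed, every median within the median half-width of the members' counting intervals, which was 0.22 to 0.25 on the log2 scale. So did TMM factors without the 72 h library, chosen after seeing the data and run only for 24 h vs 0 h and 48 h vs 24 h. Of 436 values of named genes, scaling by total tags ended the call in 19 and made a call in 25, and DESeq2 size factors ended 2 and made 1, with no called direction reversed under either.

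Depth limits single genes more than classes: a gene at 0 tags could hold up to 3 tags unseen, and the levels of some plastid genes at 24 h and of several others at 72 h rest on fewer than 20 tags. Genes near the 200 tag minimum, near-identical paralogs and the promoter and sequence features of these genes were not analysed further here.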
